A study of Homo sapiens with 6 samples.

Results

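The genes described here encode the subunits of respiratory complex I from the nuclear genome, together with all protein genes of the mitochondrial genome. Members were chosen by symbol, which left out the accessory subunit NDUFAB1. They are the 38 nuclear genes named NDUFA, NDUFB, NDUFC, NDUFS or NDUFV with a number and at least 100 counts over 6 libraries, and the 13 mitochondrial genes named MT-ND, MT-CO, MT-CYB or MT-ATP, which makes 51 of 56638 gene names counted. RNA was sequenced from HL60, a line grown from human acute myeloid leukaemia with promyelocytic features, in 3 libraries of SKI knockout cells and 3 libraries of CRISPR/Cas9 control cells. The knockout libraries came from 1 line (KO-3), in which SKI had been deleted by CRISPR/Cas9, and the control libraries from 1 line (CTR-1) that carried a CRISPR/Cas9 control. All cells were grown in RPMI with 10% FCS, and the libraries were made with a stranded mRNA kit. Each group is thus a single line, so the deletion of SKI cannot be told apart from other differences between the lines. Whether replicates came from separate cultures is not in the labels, so all p-values reflect the spread among 6 libraries, and that spread may be technical.

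Complex I takes electrons from NADH, passes them along a chain of iron-sulphur clusters in its matrix arm to ubiquinone, and pumps protons through its membrane arm. The catalytic core of the matrix arm is encoded in the nucleus, and that of the membrane arm by the MT-ND genes of the mitochondrial genome, while a large shell of accessory subunits is nuclear. The mitochondrial genome is transcribed into long precursors that are cut into single mRNAs, most of them polyadenylated, so its mRNAs share promoters but not stability. AML cells are known for their reliance on mitochondrial respiration.

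Library totals ran from 47930276 to 58553247 counts, and 16340 genes were tested, all 51 members among them. SKI, the targeted gene and a co-repressor of SMAD signalling, had 59.6, 40.7 and 42.04 CPM (counts scaled to library size) in the knockout libraries, against 63.9, 83.5 and 88.5 CPM in the control libraries. Its fitted log2 change was -0.73 ± 0.19 (SE; edgeR quasi-likelihood, adjusted p = 0.0282), and the call was lost without control replicate 2 (0.109) or 3 (0.136), without knockout replicate 2 (0.0769) or when libraries were scaled by their totals (0.0673). SKI mRNA was therefore still present in every knockout library. Of 5 granulocyte precursor markers, ELANE was at or near 0 in every library, and MPO, AZU1, CD33 and CEBPE were each lower in all 3 knockout libraries than in any control library, with a summed level of 2871 to 8784 CPM in the knockout and 12216 to 14516 CPM in the control. In bulk RNA, fewer cells of a type and less of its RNA per cell cannot be told apart. The part of marker differences in the results below was not tested. Markers of T cells, erythroid cells and fibroblasts stayed under 1 CPM in every library. Among B cell markers, CD79A had 2.05 to 5.87 CPM in the knockout and 0.921 to 1.39 CPM in the control, while MS4A1 was at 0 in every library. Of 3 epithelial markers, KRT8 had 4.68 to 9.53 CPM in the knockout and 2.66 to 5.0001 CPM in the control, while EPCAM and KRT18 stayed under 1 CPM.

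Across the whole table, 11.8% of genes passed an adjusted p of 0.05 in either direction, 6.19% higher and 5.63% lower in the knockout. Among the nuclear complex I genes 1 of 38 passed, NDUFS7, which fell, and none rose. Among the mitochondrially encoded genes 0 of 13 passed in edgeR, in DESeq2 (which called 14.1% of all genes) or in limma-voom (11.5%), and 0 had an unadjusted p under 0.05 in edgeR. The median log2 change was -0.05 over the nuclear members, with a range of -0.96 to 0.47, and -0.06 over the mitochondrial members, with a range of -0.30 to 0.22. Over all genes tested it was -0.01. Of the nuclear members 23 of 38, and of the mitochondrial members 7 of 13, had a fitted change below 0, beside 50.8% of all genes. The knockout and control values of 5 nuclear members did not overlap, 1 of them higher and 4 lower, and those of 0 mitochondrial members, beside 32.2% of all genes (16.0% higher, 16.1% lower).

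These counts can be read against the precision of the fit. The 95% interval of the log2 change lay within 1 unit of 0, a change of less than 2-fold, for 49 of 51 members, among them all 13 mitochondrial genes. The exceptions were NDUFS7 and NDUFB7. The median half-width of the interval over the members was 0.42 with 3 libraries a group.

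**Figure D1:**
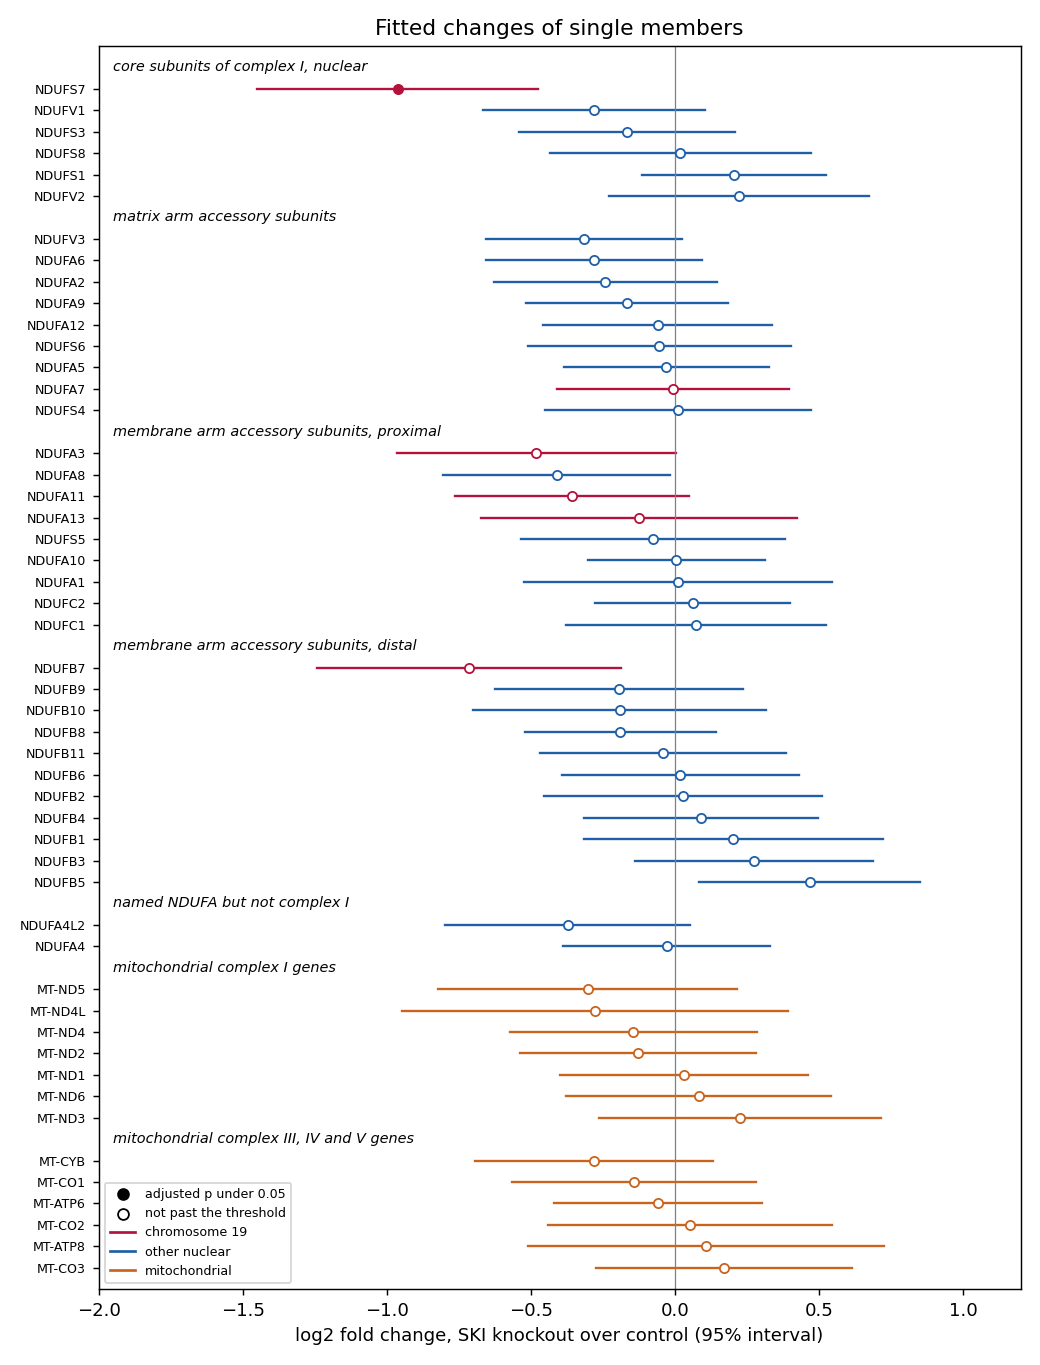
Fitted log2 fold change, knockout over control, of single members with its 95% interval (edgeR, n = 3 libraries a group), grouped by place in the complex and by genome. NDUFS7 and NDUFB7 lie farthest below 0, at -0.96 and -0.72, and the 13 mitochondrial genes lie between -0.30 and 0.22.

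The nuclear core of the matrix arm comprises 7 subunits that bind the flavin and the iron-sulphur clusters. Of these 1 fell and 6 did not pass the test, and the median log2 change was 0.02. NDUFS7, which carries the last iron-sulphur cluster before ubiquinone, had 41.0, 38.9 and 73.5 CPM in the knockout libraries, against 94.7, 102 and 102 CPM in the control libraries. Every knockout library was below every control library, and knockout replicate 3 was nearer to the control than the other knockout libraries. The means were 51.1 ± 19.4 CPM in the knockout and 99.6 ± 4.28 CPM in the control (SD, n = 3 each), a log2 change of -0.96 ± 0.22 (SE, 95% interval -1.45 to -0.47, edgeR adjusted p = 0.0172). The call was lost without control replicate 2 (adjusted p = 0.0596), control replicate 3 (0.0768) or knockout replicate 1 (0.0978). In the authors' deposited table the log2 change of NDUFS7 was -0.86 with an adjusted p of 0.00207. Exons of NDUFS7 overlap another gene on the opposite strand, and the sources used here do not give the strand setting of the counting.

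NDUFV1, the subunit that binds FMN and oxidises NADH, was the nuclear member with the most counts. It had 249.7, 231 and 341 CPM in the knockout libraries, against 327, 322 and 349 CPM in the control libraries, so the groups overlapped (log2 change -0.28, 95% interval -0.66 to 0.10, adjusted p = 0.336). NDUFV2, its iron-sulphur partner, had 116, 147 and 205 CPM in the knockout and 149.96, 137 and 114 CPM in the control, with a log2 change of 0.22 (interval -0.23 to 0.67). NDUFS1, which holds several clusters of the chain, had 93.1, 106 and 84.4 CPM in the knockout and 77.9, 86.9 and 81.1 CPM in the control, with a log2 change of 0.21 (interval -0.11 to 0.52). NDUFS1 and NDUFV2 thus had their highest value in a knockout library, but neither pair of groups was separate.

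NDUFS3 had 135, 164 and 189 CPM in the knockout libraries and 204, 186 and 158 CPM in the control libraries (log2 change -0.17, interval -0.54 to 0.21). NDUFS8, which carries iron-sulphur clusters of the same chain, had 80.8, 76.5 and 136 CPM in the knockout and 95.5, 96.2 and 97.8 CPM in the control (log2 change 0.02, interval -0.43 to 0.47). In NDUFS8 knockout replicate 3 lay above every control library and the other knockout libraries lay below all of them, whereas in NDUFS3 the groups overlapped. The difference between NDUFS7 and its core partners was not tested.

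Accessory subunits surround this core. Of the 9 accessory subunits of the matrix arm none passed the test, 8 had a fitted change below 0, and the median log2 change was -0.06. NDUFV3, a small subunit bound to the flavin-binding pair, had 29.7, 34.0 and 34.0 CPM in the knockout libraries, against 45.4, 35.7 and 40.4 CPM in the control libraries. The groups did not overlap, but the log2 change of -0.32 did not pass (adjusted p = 0.218). NDUFS4 and NDUFS6, late-joining subunits mutated in Leigh syndrome and infantile complex I deficiency, had log2 changes of 0.01 and -0.05. NDUFA9, which contacts the ubiquinone site, and NDUFA12 had -0.17 and -0.06.

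Of the 20 accessory subunits of the membrane arm, 9 in its part near the matrix arm and 11 in the distal part, none passed the test, with median log2 changes of -0.08 and 0.02. NDUFB7, a subunit with paired cysteine motifs on the side of the intermembrane space, had 31.3, 43.0 and 70.3 CPM in the knockout libraries, against 78.6, 77.6 and 81.3 CPM in the control libraries. All knockout values were below all control values, with replicate 3 again nearest to the control. The means were 48.2 ± 20.005 CPM in the knockout and 79.2 ± 1.91 CPM in the control, and the log2 change of -0.72 (interval -1.24 to -0.19) did not pass (edgeR adjusted p = 0.0780). It passed with DESeq2 (0.0453), in the authors' deposited table (-0.63, adjusted p = 0.0498), with no filter on low counts (0.0031; 9.5% of all genes called), and when the trend of each library with gene length was removed (0.0229).

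NDUFB5, a membrane-spanning subunit of the distal part, had the largest fitted increase of the nuclear members. It had 66.3, 65.1 and 95.7 CPM in the knockout libraries, against 59.3, 53.9 and 51.03 CPM in the control libraries, without overlap, and its log2 change of 0.47 (interval 0.09 to 0.85) did not pass (adjusted p = 0.108). NDUFA8, another subunit with paired cysteine motifs, had 30.6, 33.1 and 45.5 CPM in the knockout and 54.2, 43.8 and 47.1 CPM in the control. Its log2 change was -0.41 (interval -0.80 to -0.02, unadjusted p = 0.0426, adjusted p = 0.167), and it passed with the length trend removed (0.0473). NDUFS7, NDUFB7 and NDUFA8 were the members with an unadjusted p under 0.05 that were lower, and NDUFB5 the one that was higher, 4 of 38 beside 27.1% of all genes.

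The naming pattern also takes in NDUFA4, now known as a subunit of cytochrome c oxidase, and its relative NDUFA4L2, a gene known to be induced by hypoxia. NDUFA4 had 61.9, 77.9 and 79.0 CPM in the knockout libraries and 82.9, 78.0 and 62.2 CPM in the control libraries (log2 change -0.03). NDUFA4L2 was the least counted member among the nuclear genes, with 6.32, 7.06 and 8.23 CPM in the knockout and 8.62, 9.03 and 10.3 CPM in the control. Its groups did not overlap, and its log2 change of -0.37 did not pass (adjusted p = 0.248). Without this pair 1 of 36 nuclear members passed, NDUFS7 again.

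**Figure D2:**
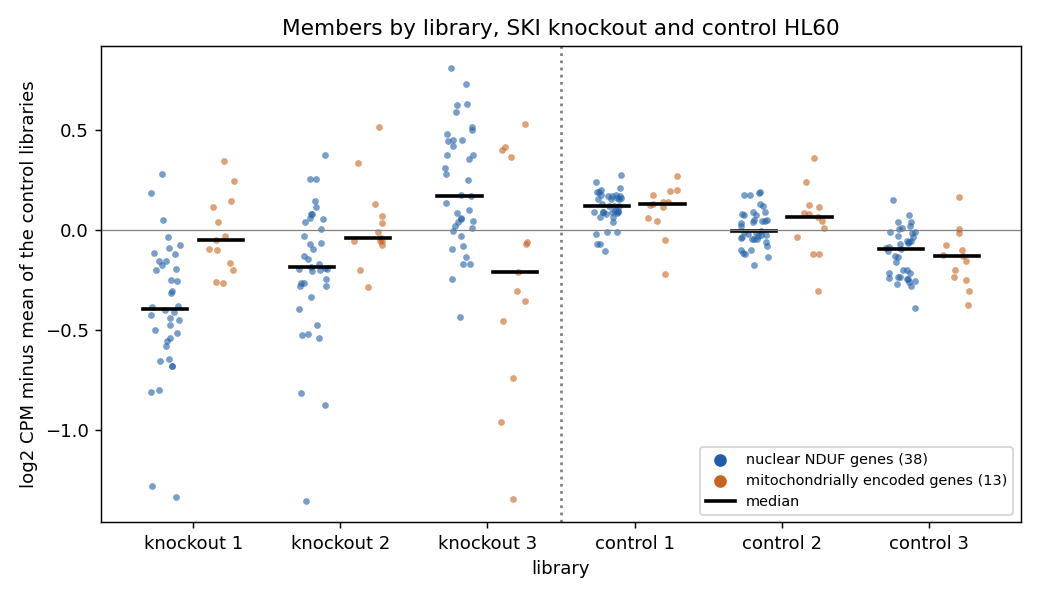
Log2 difference of each member from its control mean in each library (y axis, log2 CPM), with the knockout libraries left of the control libraries, one point per gene and the median as a line, for nuclear and mitochondrial genes. The nuclear median lies at -0.39, -0.19 and 0.17 in the knockout libraries and between -0.10 and 0.12 in the control libraries.

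The 2 genomes were then set side by side in each library. The 13 mitochondrial genes took 2.29%, 2.24% and 2.06% of all counts in the knockout libraries, and 2.37%, 2.27% and 2.08% in the control libraries, with means of 2.20% ± 0.121 in the knockout and 2.24% ± 0.147 in the control (SD, n = 3 each). The 38 nuclear members took 0.267%, 0.284% and 0.348% of counts in the knockout libraries and 0.331%, 0.325% and 0.304% in the control libraries. The mitochondrial share differed by less than the spread between libraries, and the nuclear share of knockout replicate 3 was the highest of all 6 while those of the other knockout libraries were the lowest.

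The ratio of mitochondrial to nuclear member counts was 8.57, 7.86 and 5.92 in the knockout libraries, against 7.17, 6.98 and 6.84 in the control libraries. Its mean was 7.45 ± 1.37 in the knockout and 6.997 ± 0.163 in the control, so the difference of the means was smaller than the spread in the knockout. Over members, the median log2 difference from the control mean was -0.39, -0.19 and 0.17 for nuclear genes in the knockout libraries, against 0.12, -0.01 and -0.10 in the control libraries. For mitochondrial genes it was -0.05, -0.04 and -0.21 in the knockout libraries, against 0.13, 0.06 and -0.13 in the control libraries. The mitochondrial minus the nuclear median was thus 0.34, 0.15 and -0.38 in the knockout libraries, beside 0.01, 0.07 and -0.04 in the control libraries. Knockout replicates 1 and 2 lay above all control libraries and knockout replicate 3 below them.

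Of the 7 MT-ND genes, which encode the membrane core of complex I, none passed the test and the median log2 change was -0.13. MT-ND1, at the junction of the arms, had 1306, 1205 and 892 CPM in the knockout libraries and 1214, 1153 and 959.7 CPM in the control libraries. MT-ND2, a proton-pumping subunit, had 1967, 2049.8 and 1826 CPM in the knockout and 2288, 2302 and 1793 CPM in the control. MT-ND4, another pump, had 3567, 3505 and 2846 CPM in the knockout and 3755, 3863 and 3339.9 CPM in the control. In all 3 genes the groups overlapped, and their log2 changes were 0.03, -0.13 and -0.14.

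MT-ND5, the pump at the tip of the arm, had 925, 979 and 507 CPM in the knockout libraries, against 1079, 993 and 901 CPM in the control libraries. Its log2 change of -0.30 (interval -0.82 to 0.22, adjusted p = 0.451) was the largest decrease of the mitochondrial genes. Knockout replicate 3 held about 0.532 times the mean of the other knockout libraries, and without it the log2 change was -0.04. MT-ND3 had 390.1, 565 and 646 CPM in the knockout and 540.3, 485 and 345 CPM in the control (log2 change 0.22, adjusted p = 0.560). MT-ND6, the only protein gene of the light strand, whose mRNA is known to lack a poly(A) tail, had 17.3, 12.8 and 20.2 CPM in the knockout and 17.3, 12.7 and 17.6 CPM in the control (log2 change 0.08).

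The mitochondrial genes of the later complexes did not pass either, with a median log2 change of -0.00 over 6 genes. MT-CYB, the cytochrome b of complex III, had 1374, 1341 and 1125 CPM in the knockout libraries, against 1739, 1631 and 1297 CPM in the control libraries (log2 change -0.28, interval -0.69 to 0.13, adjusted p = 0.372). MT-CO1, the catalytic subunit of cytochrome c oxidase, had 3559, 4061 and 4078 CPM in the knockout and 4669, 3939 and 4291 CPM in the control. MT-CO2, which takes electrons from cytochrome c, had 2924, 3371 and 4671 CPM in the knockout and 4017, 3227 and 3329 CPM in the control. For all 3 genes the groups overlapped, and the log2 changes of MT-CO1 and MT-CO2 were -0.14 and 0.05.

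MT-CO3, the third core subunit of the oxidase, had 3156, 3223 and 4043 CPM in the knockout libraries and 3509, 2996 and 2753 CPM in the control libraries (log2 change 0.17). MT-ATP6, a part of the proton channel of ATP synthase, varied little, with 1190.2, 1184 and 1179 CPM in the knockout and 1281, 1271 and 1149 CPM in the control (log2 change -0.06). MT-CO2 and MT-CO3 had their highest value in knockout replicate 3, whereas MT-ND1, MT-ND4, MT-ND5 and MT-CYB had their lowest value there.

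Some mitochondrial genes share an mRNA, MT-ATP8 with MT-ATP6 and MT-ND4L with MT-ND4, and their reading frames overlap. The ends of both upstream genes are shown because reads in the overlap match both genes. They were read from GENCODE release 29 transcripts on the heavy-strand sense, with the bases shared with the downstream gene in capitals.
end of MT-ATP8: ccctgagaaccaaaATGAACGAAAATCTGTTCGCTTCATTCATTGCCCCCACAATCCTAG
end of MT-ND4L: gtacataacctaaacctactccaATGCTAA
The overlap covers 46 of the 207 bases of MT-ATP8, or 22.2%, and 7 of the 297 bases of MT-ND4L, or 2.36%. The sources used here do not give how reads shared by overlapping genes were counted.

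MT-ATP8, a small subunit of ATP synthase, had 267, 299 and 126 CPM in the knockout libraries and 202, 269 and 169.7 CPM in the control libraries (log2 change 0.11, interval -0.51 to 0.73). MT-ND4L, a small membrane subunit of complex I, had 398, 377 and 145 CPM in the knockout and 316, 434 and 364 CPM in the control (log2 change -0.28, interval -0.95 to 0.39, adjusted p = 0.606). Both were lowest of all 6 libraries in knockout replicate 3, at 0.444 and 0.374 times the mean of the other knockout libraries. Without that library the log2 change was 0.42 for MT-ATP8 and 0.08 for MT-ND4L. The downstream partners MT-ATP6 and MT-ND4 did not show a drop of that size.

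**Figure D3:**
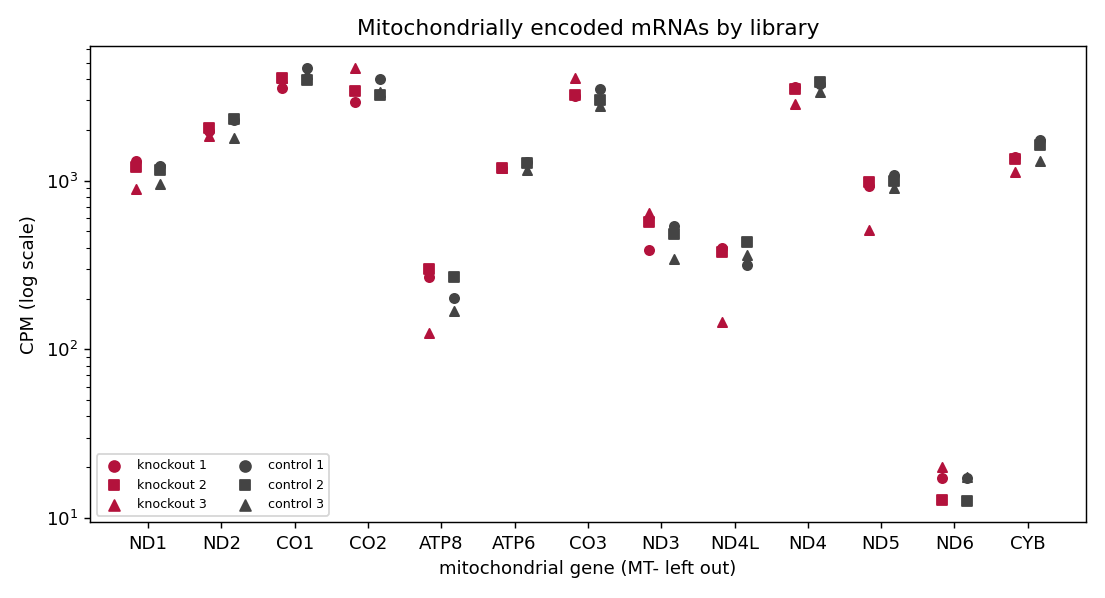
CPM of each of the 13 mitochondrial protein genes in each library on a log axis, with the knockout libraries left of the control libraries. MT-ATP8 and MT-ND4L lie at 126 and 145 CPM in knockout replicate 3 and at 169.7 CPM or more in every other library.

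Mitochondrial ribosomal RNA, which an mRNA kit retains only in part, was described apart. MT-RNR2, the large ribosomal RNA, had 3129.8, 2321 and 2879 CPM in the knockout libraries, against 2241, 1627 and 1718 CPM in the control libraries, and the groups did not overlap. Its log2 change of 0.58 ± 0.21 (SE) did not pass (edgeR adjusted p = 0.0974), and passed with DESeq2 (0.0273), with no filter (0.0213) and without knockout replicate 2 (0.0448). In the authors' deposited table the log2 change of MT-RNR2 was 0.56 with an adjusted p of 0.0297. MT-RNR1, the small ribosomal RNA, had 276, 232 and 342 CPM in the knockout and 262, 188 and 191 CPM in the control (log2 change 0.41, adjusted p = 0.197). Per mitochondrial protein count, MT-RNR2 gave 0.149, 0.105 and 0.130 counts in the knockout libraries and 0.0910, 0.0721 and 0.0830 counts in the control libraries.

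Levels of different genes were compared as CPM per kilobase of the deposited gene length. MT-CO2 was highest, with a level of 5344 ± 1327 in the knockout and 5152 ± 628 in the control (SD, n = 3 each). MT-CO3 followed with 4431 ± 629.8 in the knockout and 3936 ± 492 in the control, then MT-CO1 with 2529 ± 191 in the knockout and 2788 ± 237 in the control, and MT-ND4 with 2399 ± 290 in the knockout and 2651 ± 200.4 in the control. The levels of MT-CO1 and MT-ND4 differed by less than their SDs in both groups, whereas MT-CO3 lay above MT-CO1 by more than the SDs of both. MT-ND2, MT-ATP6, MT-ND3, MT-ND1, MT-CYB, MT-ATP8 and MT-ND4L lay between 1033 and 1869 in the knockout and between 1033 and 2042 in the control. MT-ND5 had 444 ± 143 in the knockout and 547 ± 49.2 in the control, and MT-ND6 had 32.0 ± 7.06 in the knockout and 30.2 ± 5.21 in the control.

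All mitochondrial genes but MT-ND6, 12 of 13, lay above the highest nuclear member in both groups. That member was NDUFS5, an accessory subunit of the membrane arm, with a level of 229 ± 67.7 in the knockout and 241 ± 24.4 in the control. The median nuclear level was 26.5 in the knockout and 25.7 in the control. NDUFA3 had the lowest level, 1.35 in the knockout and 1.89 in the control, but its deposited length is 10.0 times the length of its exons in GENCODE release 29. With the length of one principal GENCODE transcript the lowest members were NDUFA4L2 in the knockout (6.08) and NDUFS1 in the control (6.93), and 12 of 13 mitochondrial genes again exceeded every nuclear member. Levels in an mRNA library also depend on the poly(A) tail, so that of MT-ND6 cannot be read as its abundance.

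Knockout replicate 3 stood apart from the other knockout libraries in the nuclear members. It held the highest of the 3 knockout values for 34 of 38 nuclear members, or 89.5%, beside 35.9% of 10568 well-counted genes (average log2 CPM above 2). The median log2 difference from the mean of the other knockout libraries was 0.54 over the nuclear members, -0.14 over the mitochondrial members and -0.03 over all well-counted genes. NDUFA13, a membrane arm subunit also known as GRIM-19, had 93.2, 97.0 and 194 CPM in the knockout libraries, so replicate 3 held 2.04 times the mean of the others, against 152, 129 and 138 CPM in the control. Among mitochondrial members replicate 3 was the highest knockout library for 5 and the lowest for 8.

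This difference moved with transcript length. Over well-counted genes with a transcript under 1000 bases, knockout replicate 3 was highest for 78.3% of 548 genes, with a median log2 difference of 0.49. For transcripts of 1000 to 2000 bases the median was 0.26, for those of 2000 to 4000 bases -0.01, and for those of 4000 bases or more -0.29. Of the nuclear members 20 had a transcript under 1000 bases and 10 one of 1000 to 2000 bases. MT-ATP8 and MT-ND4L, the mitochondrial genes under 300 bases, had log2 differences of -1.17 and -1.42. Each shares an mRNA with its downstream gene, so their gene lengths are not mRNA lengths and do not place them in these classes. MT-ND3, of 346 bases, had a difference of 0.46, and MT-ND5, of 1812 bases, one of -0.91. The part of transcript length in the members' values was not tested. The length trend that was removed used the deposited gene length, which can differ widely from that of the transcript. For NDUFS7 these were 7522 and 1039 bases. With that trend removed 3 of 38 nuclear members passed (NDUFS7, NDUFB7 and NDUFA8, all lower), beside 13.8% of all genes.

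**Figure D4:**
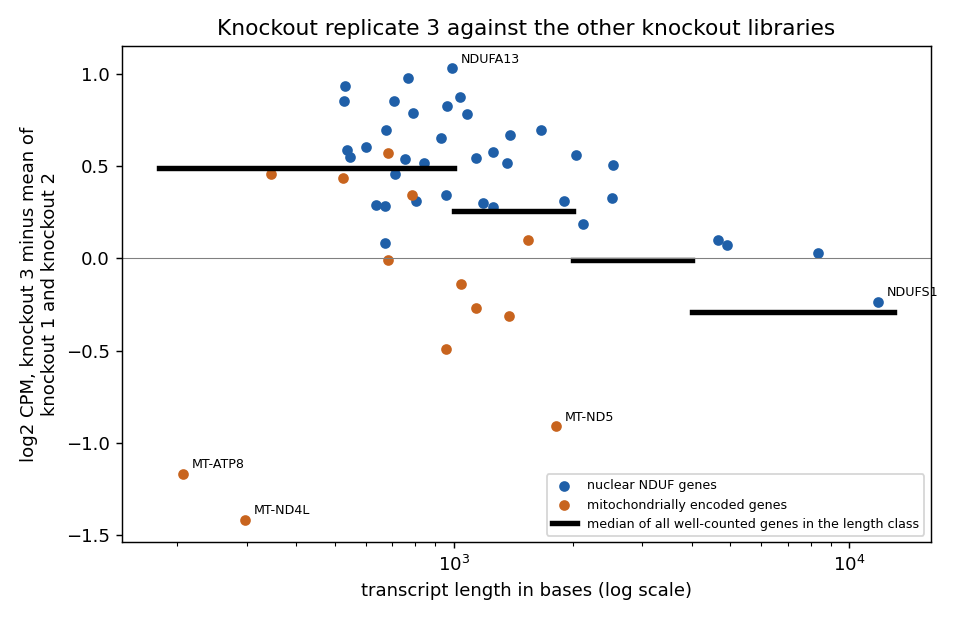
Log2 CPM of knockout replicate 3 minus the mean of knockout replicates 1 and 2 (y axis) against transcript length in bases (x axis, log scale) for the nuclear and mitochondrial members. Bars give the median of all well-counted genes in each length class. Most nuclear members are short and lie above 0, with a median of 0.54. MT-ATP8 and MT-ND4L, placed by gene length, lie at -1.17 and -1.42.

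Without knockout replicate 3, 6 of 38 nuclear members passed and all 6 fell, beside 13.6% of all genes in either direction and 6.43% lower. They were NDUFS7 (log2 change -1.30, adjusted p = 9.28e-05), NDUFB7 (-1.07, 0.00078), NDUFA3 (-0.79, 0.00417), NDUFA8 (-0.58, 0.0228), NDUFA11 (-0.56, 0.0233) and NDUFA13 (-0.53, 0.0247). The median over the 38 was -0.26, and 33 of 38 were below 0. Over the mitochondrial genes 0 of 13 passed and the median was -0.03. The nuclear median was 0.09 without knockout replicate 1, so its sign changed with the library left out.

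The nuclear members were also read beside their chromosomes, since the medians of whole chromosomes differed between the lines. Over 665 well-counted genes of chromosome 19 the median log2 change was -0.48, with 85.7% below 0, whereas the medians of the other chromosomes that hold members ran from -0.22 for chromosome 9 to 0.24 for chromosome 22. All 6 members on chromosome 19 had a fitted change below 0, with a median of -0.42, and 1 of them passed, while 0 of the other 32 passed and their median was -0.03. Of the 6 genes called without knockout replicate 3, all but NDUFA8 on chromosome 9 are on chromosome 19.

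NDUFA3, a membrane arm subunit, had 26.8, 26.4 and 47.3 CPM in the knockout libraries, against 52.1, 43.4 and 44.9 CPM in the control libraries (log2 change -0.48, adjusted p = 0.187). NDUFA11, which contacts complex III in respiratory supercomplexes, had 66.4, 76.5 and 107 CPM in the knockout and 119, 102 and 99.7 CPM in the control (-0.36, adjusted p = 0.245). NDUFA7, whose exons overlap RPS28 on the opposite strand, had 39.9, 38.1 and 59.3 CPM in the knockout and 48.9, 45.1 and 43.8 CPM in the control (-0.00). In each of these, knockout replicates 1 and 2 lay below all control libraries and replicate 3 above at least 1 of them.

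When each gene was centred on its chromosome in each library, 0 of 38 nuclear members passed in edgeR, beside 8.62% of all genes, and 4 had an unadjusted p under 0.05. NDUFS7 then had a log2 change of -0.49 (adjusted p = 0.149), NDUFB7 -0.24 (0.531), NDUFA3 -0.01, NDUFA11 0.12 and NDUFA13 0.34, and the median of the 6 was 0.06. The difference of NDUFS7 was thus about as far below its chromosome as its chromosome was below 0. The copy number of these chromosomes was not measured.

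**Figure D5:**
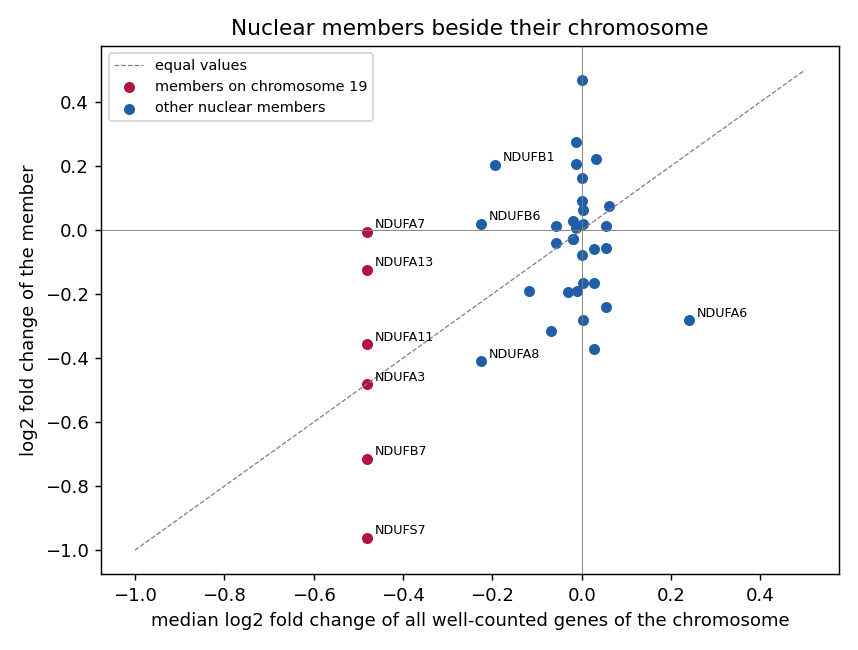
Log2 fold change of each nuclear member (y axis) against the median log2 fold change of all well-counted genes on its chromosome (x axis), knockout over control. The 6 members on chromosome 19 stand at a chromosome median of -0.48 and lie between -0.96 and -0.00.

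The starts of NDUFS7 and NDUFB7, the members with the largest decreases, are shown because nuclear respiratory genes are known to be driven by NRF1 and by ETS factors such as GABP. Each window runs from 250 bases before to 50 after the start (RefSeq, GRCh38.p14), with a motif match in capitals.
NDUFS7 (chr19:1383657-1383956, plus strand): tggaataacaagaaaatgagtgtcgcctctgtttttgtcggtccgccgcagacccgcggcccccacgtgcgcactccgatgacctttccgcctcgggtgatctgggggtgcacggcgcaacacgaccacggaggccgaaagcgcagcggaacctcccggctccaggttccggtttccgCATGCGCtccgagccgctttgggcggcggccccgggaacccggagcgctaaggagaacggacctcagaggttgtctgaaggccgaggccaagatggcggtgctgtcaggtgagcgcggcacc
NDUFB7 (chr19:14572017-14572316, minus strand): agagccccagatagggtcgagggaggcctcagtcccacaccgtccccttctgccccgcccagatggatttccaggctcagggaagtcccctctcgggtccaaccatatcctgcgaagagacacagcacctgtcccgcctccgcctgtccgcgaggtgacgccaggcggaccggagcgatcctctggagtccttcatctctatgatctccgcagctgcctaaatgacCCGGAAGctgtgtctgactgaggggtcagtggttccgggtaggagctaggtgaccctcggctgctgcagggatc
The capitals mark GCGCATG, a part of the NRF1 motif, read on the reverse strand in NDUFS7, and the ETS core CCGGAAG in NDUFB7. Both strands were searched in the 31 of 38 nuclear members with an entry. A gene was counted if any of its windows held a match. GCGCATG was found in 7 of 31 members, or 22.6%, beside 9.05% of 9513 tested genes and 5.3% of all 27305 genes with an entry. CCGGAAG was found in 5 of 31, or 16.1%, beside 22.3% of tested genes. A match is a description of letters and no evidence of binding.

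Other genes of the respiratory chain were counted from lists, beside 11.8% of all genes called, 6.19% higher and 5.63% lower. Of 17 genes tested from a list of complex I assembly factors, 2 fell and 0 rose, a share near that of all genes, with a median log2 change of 0.09. The list holds NDUFAB1, which is an accessory subunit (log2 change 0.05, not called). ECSIT, a part of the assembly complex for the membrane arm, had 56.8 ± 6.83 CPM in the knockout and 112 ± 5.86 CPM in the control (log2 change -0.98, edgeR adjusted p = 0.00218). It is on chromosome 19, and centring took it to -0.49 (0.0593). NUBPL, which delivers iron-sulphur clusters to complex I, had 5.76 ± 0.930 CPM in the knockout and 9.31 ± 0.985 CPM in the control (-0.69, adjusted p = 0.0497), and that call was lost when any library other than knockout replicate 2 was left out (0.0953 to 0.187), with no filter (0.0525), with chromosome centring (-0.52, 0.146), and under scaling by DESeq2 (0.0505), by the authors (0.0533) or by library totals (0.0935).

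Of 6 complex II genes and 16 complex V genes 0 passed in edgeR, DESeq2 or limma-voom, and 2 and 0 of them had an unadjusted p under 0.05 in edgeR. Their median log2 changes were 0.05 and 0.04. Of 11 nuclear complex III genes 1 fell, beside 5.63% of all genes. This was UQCR11, a small subunit on chromosome 19, with 90.2 ± 12.8 CPM in the knockout and 143 ± 0.189 CPM in the control (-0.67, adjusted p = 0.0148; -0.18 and 0.462 after chromosome centring). The call was lost as well without control replicate 1 (0.0531), 2 (0.0662) or 3 (0.0665) or knockout replicate 1 (0.0644). Of 18 nuclear complex IV genes 2 rose and 0 fell, with a median of -0.06, beside 6.19% of all genes that rose and 5.63% that fell. COX17, the copper chaperone of the oxidase, had 25.5 ± 5.35 CPM in the knockout and 14.9 ± 2.48 CPM in the control (0.77, adjusted p = 0.0295). COX7A2L, known for holding complexes III and IV together, had 188 ± 33.6 CPM in the knockout and 119 ± 17.02 CPM in the control (0.66, adjusted p = 0.0301). Both calls were lost without control replicate 2 (0.0795 for COX17, 0.118 for COX7A2L), control replicate 3 (0.142 and 0.152) or knockout replicate 1 (0.0979 and 0.0549).

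Of 13 genes for replication and transcription of mitochondrial DNA 2 fell, with a median log2 change of -0.16, beside 5.63% of all genes that fell. POLRMT, the mitochondrial RNA polymerase, had 74.1 ± 14.5 CPM in the knockout and 146 ± 23.4 CPM in the control (-0.98, adjusted p = 0.00596), is on chromosome 19, and stood at -0.49 (0.0825) after chromosome centring. POLG, the catalytic subunit of the mitochondrial DNA polymerase, had 59.5 ± 14.6 CPM in the knockout and 101 ± 12.02 CPM in the control (-0.77, adjusted p = 0.0210), a call lost without control replicate 2 (0.0942), control replicate 3 (0.0956) or knockout replicate 1 (0.0857). POLRMT transcribes the mitochondrial genome, of whose 13 mRNAs none passed, as given above. MT-RNR2, also from that genome, was higher in the knockout without overlap but not called in edgeR. Whether the level of POLRMT bears on these RNAs was not tested.

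Of 20 genes for the processing and stability of mitochondrial RNA 1 rose and 0 fell, beside 11.8% of all genes called. A fitted change below 0 was found for 19 of 20, beside 50.8% of all genes, and the median was -0.22. The gene above 0 was REXO2, an exonuclease for short RNAs, with 48.7 ± 6.05 CPM in the knockout and 31.8 ± 4.24 CPM in the control (0.61, adjusted p = 0.0333). That call did not hold without control replicate 1 (0.0763), 2 (0.163) or 3 (0.0868) or knockout replicate 1 (0.108).

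Of 11 regulators of respiratory genes 2 fell, with a median of -0.26, beside 5.63% of all genes that fell. With the GC trend removed 0 of the 11 passed in edgeR, beside 12.2% of all genes (4.96% lower). Of the 11, 3 then had an unadjusted p under 0.05. MYC, which drives many genes of mitochondrial biogenesis, had 651 ± 264 CPM in the knockout and 1320 ± 264 CPM in the control (-1.02, adjusted p = 0.0376). ESRRA, a nuclear receptor that activates respiratory genes, had 70.4 ± 6.31 CPM in the knockout and 100.1 ± 5.44 CPM in the control (-0.51, adjusted p = 0.0385). The call for MYC was lost without any one control replicate (0.0865, 0.0501 and 0.153 for replicates 1, 2 and 3) or knockout replicate 1 (0.115), and with the GC trend removed (0.0563). The call for ESRRA was lost when any library other than knockout replicate 2 was left out (0.0630 to 0.154), with library totals (0.0853) and with no filter (0.0714), and its log2 change was -0.34 (0.192) with the GC trend removed.

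Of 79 mitochondrial ribosomal proteins tested 3 rose and 4 fell, with a median log2 change of -0.00, beside 6.19% of all genes that rose and 5.63% that fell. After chromosome centring 0 of the 79 passed in edgeR, beside 8.62% of all genes, and 7 had an unadjusted p under 0.05. The count was 3 without control replicate 1 or 2, beside 8.09% and 5.61% of all genes called. It was 2 without control replicate 3 (beside 4.45%) and 4 without knockout replicate 1 (beside 6.09%). MRPL4, on chromosome 19, had 96.8 ± 14.7 CPM in the knockout and 178 ± 3.33 CPM in the control (-0.88, adjusted p = 0.00464). MRPS10, on chromosome 6, had 59.5 ± 3.64 CPM in the knockout and 35.6 ± 2.83 CPM in the control (0.74, adjusted p = 0.00771). MRPS2, on chromosome 9, had 103 ± 6.96 CPM in the knockout and 166 ± 10.47 CPM in the control (-0.68, adjusted p = 0.00983). The adjusted p of the 3 after chromosome centring was 0.126, 0.192 and 0.0593. The call for MRPS10 was lost without control replicate 3 (0.0559) and that for MRPS2 without control replicate 2 (0.0646).

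Counts of some members may hold reads of other genes. In GENCODE release 29 the exons of 18 nuclear members overlap opposite-strand genes and those of 13 overlap same-strand genes. NDUF pseudogene symbols took few reads, 281 counts over 34 symbols and 6 libraries, most of them in NDUFV2P1 with 258. Nuclear copies of mitochondrial genes took more. MTATP6P1 had 55567 counts over the 6 libraries, MTND4P12 16099 and MTND2P28 6534. The levels of MT-ATP6, MT-ND4 and MT-ND2 are uncertain by an amount that these counts do not fix. The same may hold for mitochondrial genes whose nuclear copies took few counts.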

How the data were processed

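RNA of 6 HL60 libraries was sequenced, with a poly(A)-based stranded kit per the labels' protocols. In the submitters' processing notes, TopHat2, featureCounts of Subread, DESeq, DESeq2 and bcl2fastq are named, with hg19 (GRCh37) as the build. Their versions, the annotation and the strand setting were not given in the sources used here. Raw counts and a length for each gene were deposited by the authors. A second table deposited by the authors holds a signal (counts over size factors), log2 fold changes and their errors, the score of a test, and p-values. It was used for the authors' values and their size factors.

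Members and lists were chosen with earlier results of these data known. Columns were matched to libraries by group and replicate number. Genes were kept by filterByExpr, scaled by TMM and tested over the whole table with edgeR's quasi-likelihood test (edgeR 4.0.16, limma 3.58.1, R 4.3.3), knockout against control, with Benjamini-Hochberg adjustment and a threshold of 0.05. CPM is relative to TMM-scaled library sizes, and 2 was added as prior count for log2 CPM. Standard errors were derived from the F statistic. In the knockout 3 counts corresponded to 0.0533 to 0.0626 CPM and in the control to 0.0512 to 0.0604 CPM, which covers counting error only. Replicates were checked for repeated libraries, and 63.4% to 79.8% of well-counted genes differed beyond counting noise in each pair.

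Named genes are the mitochondrial genes, both mitochondrial ribosomal RNAs, called and core nuclear members, NDUFA4, NDUFA4L2, members on chromosome 19, extremes of level and change, SKI, MYC and up to 3 called genes of each other list. NDUFA8, NDUFV3, NDUFA9, NDUFA12, NDUFS4 and NDUFS6 were chosen after their values were seen. The values of 1 core subunit are not reported here. Chromosome and transcript length come from GENCODE release 29 by symbol, on a later build than the counts, and placed 80.7% of tested genes on a chromosome. The alternatives tried were scaling by DESeq2, by library totals, by the size factors of the authors and on nuclear genes, no filter, CPM of at least 1 in 3 libraries, DESeq2 1.42.0, limma-voom, a replicate block, removal of the trend with gene length or GC content (lowess span 0.3), chromosome centring and leaving out each library. The GC trend, the GENCODE length and leaving out NDUFA4 and NDUFA4L2 were chosen after seeing the data. The scripts were tested on simulated data.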

Additional observations from a re-analysis of the deposited data

How the results depend on the processing

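Over 18 alternative settings the mitochondrial genes had 0 calls in each, with a median log2 change between -0.11 and -0.03. The nuclear median lay between -0.26 and 0.09 and so changed sign, and the median of all genes moved only between -0.02 and 0.02. The nuclear count of 1 became 2 with no filter and with DESeq2's Wald test, 3 with the length trend removed, 0 with chromosome centring, and 0 to 6 when single libraries were left out. All-gene calls, 1932 here, ran from 740 to 2488 when single libraries were left out, with the lowest counts without control replicate 3 (740), control replicate 2 (932) and knockout replicate 1 (1025). They were 2853 with no filter. The 17 calls over the other pathway lists, beside 11.8% of all genes, became 6 with chromosome centring, beside 8.62%. They were 4 to 24 when single libraries were left out, beside 4.45% to 14.7% of all genes. The calls are numbers of genes, whereas the percentages are shares. These other lists are those above with the numbers tested there, 8 RNA selection controls, such as MT-RNR1 and MT-RNR2, and 6 mitochondrial pseudogenes. Chromosome centring took the median of the chromosome 19 members to 0.058, since its construction subtracts the chromosome median. The median nuclear control level became 69.5 CPM per kilobase with GENCODE transcript lengths, a difference of length alone. Of 918 member and setting pairs 904 kept their side of the threshold, 10 gained a call and 4 lost one. A change of sign occurred in 79 pairs over 28 members, none of them called, with a reported log2 change of at most 0.36 in size.

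The replicate number as a block gave 2 nuclear calls, NDUFS7 and NDUFB7 (-0.80, adjusted p = 0.0251), beside 12.9% of all genes called. The replicate block also ended the call of ESRRA (0.0681). Deviations of libraries with the same number correlated at -0.19, 0.42 and -0.10 over 10474 genes. Those of libraries with unlike numbers ran from -0.50 (knockout replicate 2, control replicate 1) to 0.54 (knockout replicate 3, control replicate 1). The numbers were therefore not taken as pairs. Where not stated otherwise, the cause of a changed call was not tested.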
